A study of Mus musculus with 4 samples.

Results

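The Pramel gene cluster on mouse chromosome 5 was taken as the stretch chr5:93700001-96000000 of build mm10, and its members were all accessible regions (peaks) of an ATAC-seq experiment that overlapped it. There were 425 of 484992 peaks in the Irx5KO list and 1021 of 498061 in the WT list, so 1446 of 983053 over both lists, counted on the 21 standard chromosomes. The stretch was chosen by the peak number, peak width, covered share and shared status of its peaks in these same lists, so those values are descriptions here, and none of them was tested. Its label was checked against the gene annotation: 16 of its 29 protein-coding genes carry a Pramel name.

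Pramel genes encode PRAME-like proteins built from leucine-rich repeats, and are known mainly from germ cells and the early embryo. They belong to a rodent gene family that has grown by repeated tandem duplication, so neighbouring copies are often nearly the same in sequence. Hair follicle stem cells, the cells studied here, are adult skin cells of the hair bulge and are not a cell type for which this family is known. Cxcl13, which lies near the upper border, encodes a chemokine that attracts B cells and is not related to the family.

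ATAC-seq uses the Tn5 transposase to cut and tag open chromatin, and it was run on sorted nuclei of hair follicle stem cells (Ly-6A/E negative, CD34 positive and positive for what the labels write as CD45f). Of the 4 samples, 2 had the genotype Irx5KO, named for the homeobox gene Irx5, and 2 were WT. The allele, strain, age and sex, and whether the samples came from separate animals, were not given in the sources used here. Each genotype has 1 peak list that pools its 2 samples, so no value below has a replicate error and no difference between genotypes could be tested.

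The lists as a whole were close in size, and peaks lay within 1000 bp of a gene end for all 11 hair follicle stem cell markers in both lists. Among markers of other cells, the interfollicular genes had such a peak for 3 of 3 genes in Irx5KO and 1 of 3 in WT, the immune genes for 0 and 3 of 4, the fibroblast genes for 2 and 1 of 2, the melanocyte genes for 0 and 2 of 2 and the endothelial genes for 0 and 1 of 2. Cd3e and Pecam1 had none in either list. Over all coding genes, 75.2% had such a peak in both lists, 6.07% in Irx5KO alone and 3.99% in WT alone. Such a peak is thus the usual case, and these few genes do not show which cells were present. Whether the cells behind these marker peaks had a part in the differences at the cluster was not tested. The span of Irx5 itself (chr8:92357796-92361456) overlapped 4 peaks in Irx5KO and 2 in WT, so the lists give no check of the genotype, and the altered part of the gene was not given in the sources used here.

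The copies are seen most directly in their promoters. RefSeq promoter sequences of the same build (GRCm38.p6), from 250 bases before to 50 bases after the annotated start, were at hand for 17 genes of the stretch. They fell into 4 groups of near-identical sequence, joined at 90% identity or more over the bases that aligned, with Cxcl13 alone. The largest group held Pramel37, Pramel39, Pramel43, Pramel46, Pramel49 and Pramel50, whose pairs were 97.9 to 100% identical over at least 287 aligned bases. The promoters of Pramel37 (chr5:94070496-94070795) and Pramel50 (chr5:95736124-95736423), both on the minus strand, were the same in all 300 bases, and the sequence is shown as the form of that group, with the letters TATAAA in capitals.
Pramel37 and Pramel50: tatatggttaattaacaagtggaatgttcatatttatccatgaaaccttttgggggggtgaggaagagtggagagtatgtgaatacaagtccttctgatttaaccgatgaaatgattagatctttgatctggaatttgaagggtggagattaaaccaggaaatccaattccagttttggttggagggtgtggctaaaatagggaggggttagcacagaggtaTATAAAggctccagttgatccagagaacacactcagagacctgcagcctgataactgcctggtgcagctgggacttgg

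A second group joined Gm46934 (chr5:94777966-94778265), Pramel45 (chr5:95108206-95108505) and Gm46935 (chr5:95425685-95425984), all on the plus strand. The first 2 were identical, and Gm46935 differed from them at 1 base, which is in capitals. These 3 are shown because they were the only promoters that both lists covered in part.
Gm46934 and Pramel45: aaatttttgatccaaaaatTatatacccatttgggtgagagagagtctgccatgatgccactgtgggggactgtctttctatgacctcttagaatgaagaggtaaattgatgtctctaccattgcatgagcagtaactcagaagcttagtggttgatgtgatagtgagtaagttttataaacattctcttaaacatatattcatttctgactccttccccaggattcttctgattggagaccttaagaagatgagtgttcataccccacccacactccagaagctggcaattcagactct
Gm46935: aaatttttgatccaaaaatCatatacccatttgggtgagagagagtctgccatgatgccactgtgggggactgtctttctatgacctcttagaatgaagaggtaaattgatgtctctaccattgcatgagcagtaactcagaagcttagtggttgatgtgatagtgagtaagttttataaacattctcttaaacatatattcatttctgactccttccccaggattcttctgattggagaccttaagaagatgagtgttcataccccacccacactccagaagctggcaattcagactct

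Another group held Gm6346 (chr5:93920035-93920334), Gm6348 (chr5:95585863-95586162) and Pramel40 (chr5:94297743-94298042), again on the plus strand. Gm6346 and Gm6348 were identical although they lie at opposite ends of the stretch, and Pramel40 differed at the 4 bases in capitals.
Gm6346 and Gm6348: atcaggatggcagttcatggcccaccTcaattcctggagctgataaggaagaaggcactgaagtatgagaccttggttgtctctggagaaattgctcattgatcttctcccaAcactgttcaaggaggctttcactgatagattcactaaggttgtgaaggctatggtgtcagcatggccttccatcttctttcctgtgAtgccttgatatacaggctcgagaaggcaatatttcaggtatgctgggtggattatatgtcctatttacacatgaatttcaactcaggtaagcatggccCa
Pramel40: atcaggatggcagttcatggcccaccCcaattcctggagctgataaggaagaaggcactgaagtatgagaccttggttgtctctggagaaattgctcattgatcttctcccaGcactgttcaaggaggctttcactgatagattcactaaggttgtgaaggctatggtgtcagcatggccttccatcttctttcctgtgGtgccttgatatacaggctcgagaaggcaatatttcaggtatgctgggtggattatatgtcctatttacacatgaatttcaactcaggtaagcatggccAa

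The last group joined Pramel35, Pramel38, Pramel48 and E330014E10Rik, whose pairs were 96.3 to 100% identical, but in part over as few as 123 aligned bases. Pramel48 (chr5:95456556-95456855, plus strand) and E330014E10Rik (chr5:95775620-95775919, plus strand) are shown because the first was the only promoter covered in one list and empty in the other. The capitals mark the 180 bases over which they align, of which 178 match.
Pramel48: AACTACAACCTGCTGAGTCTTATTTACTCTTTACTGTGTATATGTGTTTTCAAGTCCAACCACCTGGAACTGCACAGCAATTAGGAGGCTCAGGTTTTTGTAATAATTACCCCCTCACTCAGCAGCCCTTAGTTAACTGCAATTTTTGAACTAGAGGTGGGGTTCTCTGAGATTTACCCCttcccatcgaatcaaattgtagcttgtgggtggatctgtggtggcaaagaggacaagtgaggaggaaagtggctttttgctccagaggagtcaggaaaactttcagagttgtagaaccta
E330014E10Rik: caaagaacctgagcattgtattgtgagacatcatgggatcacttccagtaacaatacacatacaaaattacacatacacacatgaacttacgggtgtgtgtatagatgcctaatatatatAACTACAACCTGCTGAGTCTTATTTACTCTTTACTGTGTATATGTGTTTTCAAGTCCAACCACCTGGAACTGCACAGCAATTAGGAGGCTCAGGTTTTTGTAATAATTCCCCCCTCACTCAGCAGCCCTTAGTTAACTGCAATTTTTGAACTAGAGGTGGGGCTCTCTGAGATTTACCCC

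Peaks covered 13 of the 17 promoters completely in Irx5KO and 12 in WT. All 6 promoters of the Pramel37 group and all 3 of the Gm6346 group were fully covered in both lists. The Pramel48 promoter was covered over 100% of its bases in Irx5KO and 0% in WT, while that of E330014E10Rik was covered over 100% in both. The Gm46934 promoter was covered over 91.7% in Irx5KO and 41.7% in WT, its identical copy at Pramel45 over 95% and 45%, and the Gm46935 promoter over 91.3% and 73.3%. So the 2 identical copies had nearly the same cover within each list, and the copy that differs at 1 base had more cover in WT than either of them. The Cxcl13 promoter had no peak in either list. How reads that match several such copies were placed by the authors is not given in the sources used here, and its part in any of these values was not tested.

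The letters of the promoters also set the stretch apart from the typical mouse promoter, as a description. GC content had a median of 43.7% over the 17 promoters, from 40% to 45.7%, against a median of 52.7% over all 32817 RefSeq mouse promoters of that length. The dinucleotide CG occurred a median of 1 time, against 7 over all promoters. TATAAA, searched on both strands, was in 10 of the 17 and in 13.6% of all promoters. CCAAT, likewise on both strands, was in 10 of the 17 and in 37.4% of all, and GGGCGG in 0 of the 17 and in 35.6% of all. A CCAAT can share its last letter with a TATAAA, each GGGCGG holds a CG, and near-identical copies count several times in these shares. TATAAA was in all 6 promoters of the Pramel37 group, all 3 of the Gm46934 group and that of Cxcl13. A match to such letters is not a site in use.

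Over the whole stretch of 2.3 Mb, Irx5KO had fewer and wider peaks and WT more and narrower ones, and the Irx5KO peaks covered more of the sequence. The density was 185 peaks per Mb in Irx5KO (168 to 203, exact Poisson 95% interval) and 444 in WT (417 to 472). Covered sequence came to 2048 kb or 89.1% in Irx5KO and 1764 kb or 76.7% in WT. The order of the lists was thus opposite for number and for cover. Intervals here and below cover counting error only. They take peaks as independent, which neighbouring peaks of a block need not be, and do not measure a difference between genotypes.

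Median peak width was 1860 bp in Irx5KO, with quartiles at 640 and 6150 bp, and 750 bp in WT, with quartiles at 370 and 1900 bp. Peaks of 20 kb or more numbered 19 in Irx5KO, where they made up 0.11% of the whole list, and 0 in WT, where they made up 0.114%. Peaks of 10 kb or more numbered 58 and 25. The stretch therefore held very wide peaks in one list only, although their shares over the whole lists were close. Peaks of 500 bp or less made up 20.7% in Irx5KO and 35.7% in WT. Peaks of 6 to 6.5 kb numbered 8 in Irx5KO (1.88%, against 1.49% of the whole list) and 11 in WT (1.08%, against 1.54%).

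**Figure D1:**
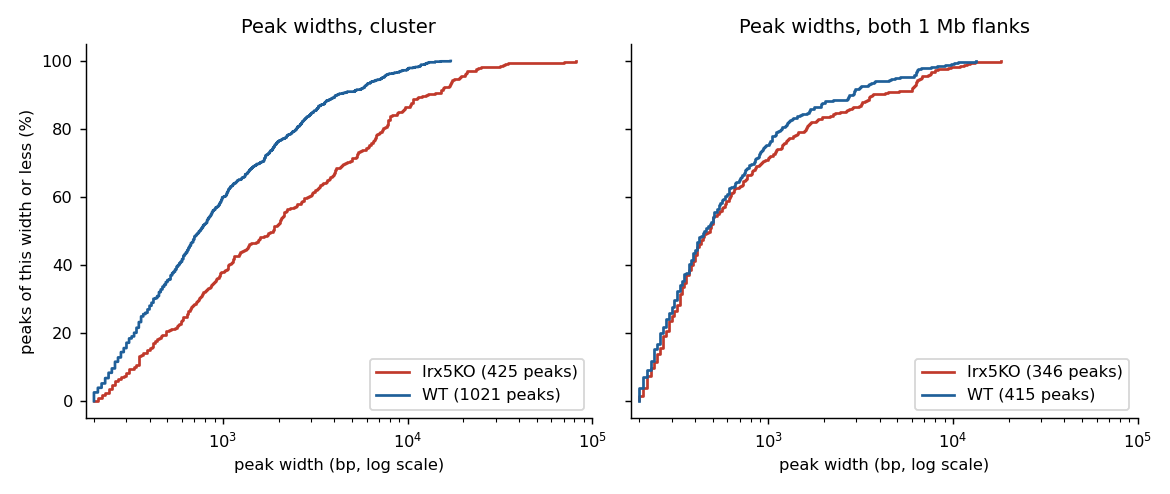
Cumulative share of peaks (percent) by peak width (bp, log scale) in the cluster (left) and in both 1 Mb flanks together (right), 1 line per list. In the cluster the Irx5KO line lies to the right of the WT line, with medians of 1860 and 750 bp, while in the flanks the lines run close together.

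The 1 Mb flanks showed where this ended. In the upper flank (chr5:96000001-97000000) there were 116 peaks in Irx5KO and 119 in WT, of median width 415 and 410 bp, which covered 12.0 and 11.7%. The lower flank, the 1 Mb just below the stretch, held 230 and 296 peaks, of median width 500 and 495 bp, which covered 37.5 and 34.0%. The dense cover began within the lower flank, about 420 kb below the chosen border. Those 420 kb held 141 and 209 peaks with 78.6 and 71.0% covered, and the rest of the flank 89 and 87 peaks with 7.80 and 7.16%. The dense part of the flank includes 2 more family members, Pramel33 (chr5:93481827-93536331), covered over 98.1 and 88.8%, and Pramel34 (chr5:93635182-93671509), covered over 96.1 and 89.7%.

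At the other end the dense cover stopped before the chosen border. The last 180 kb of the stretch, which hold Cxcl13 and no gene with a Pramel name, had 40 peaks in Irx5KO and 44 in WT and were covered over 26.2 and 26.6%. Without them, cover in the stretch was 94.4% in Irx5KO and 80.9% in WT. The cluster and the dense part of the lower flank thus form one block of dense cover, and the lists came together on both sides of it.

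**Figure D2:**
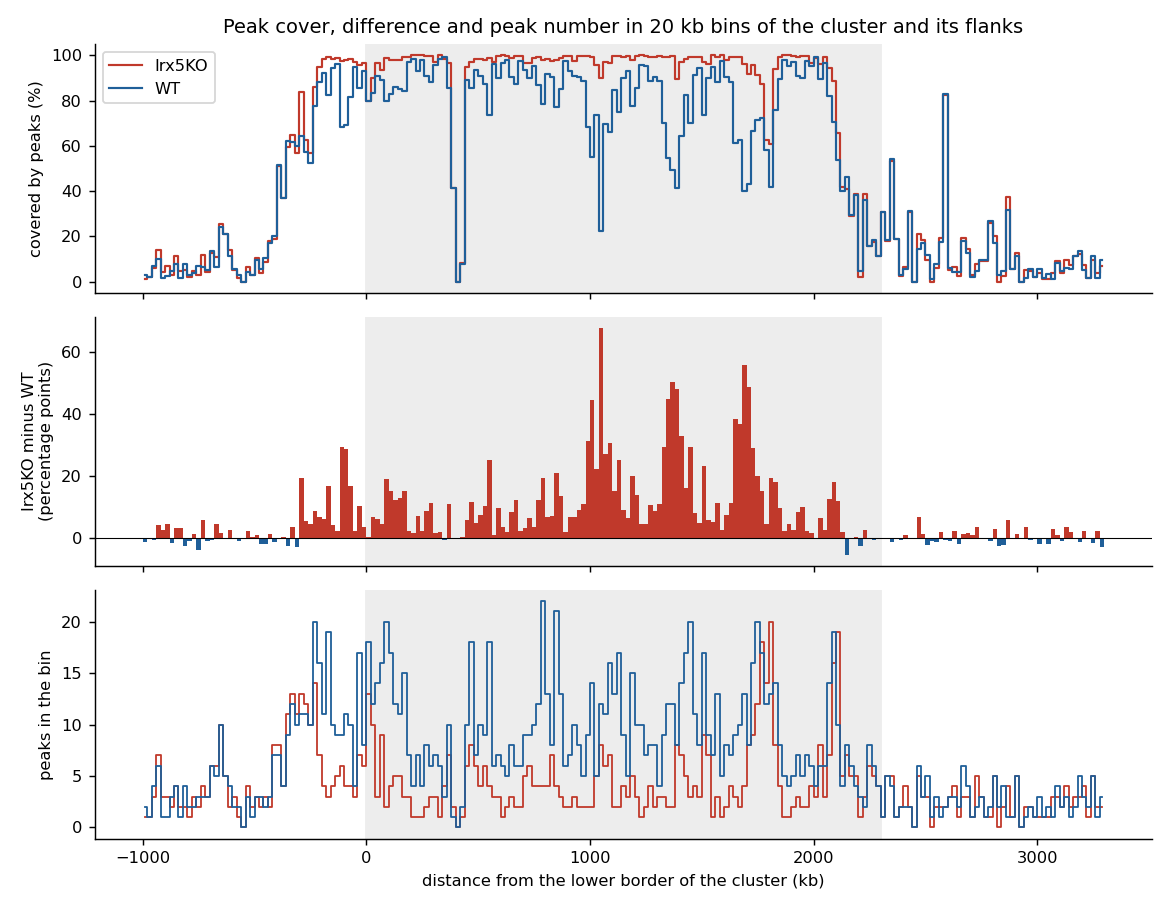
Share of each 20 kb bin covered by peaks (percent, top), Irx5KO minus WT (percentage points, middle) and number of peaks overlapping the bin (bottom), against the distance from the lower border of the cluster in kb. The cluster is shaded, red is Irx5KO and blue WT. Irx5KO cover stays near its median of 98.4% through most of the shaded part, while WT cover falls in 3 broad dips.

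Nearly all WT peaks of the stretch met an Irx5KO peak. With 1 bp of overlap or more, 1010 of 1021 WT peaks were shared (98.9%, Wilson 95% interval 98.1 to 99.4), and 379 of 425 Irx5KO peaks (89.2%, 85.9 to 91.8). In the whole lists 26.6% of WT peaks and 21.8% of Irx5KO peaks met none. With 89.1% of the stretch under Irx5KO peaks, a WT peak touches one almost wherever it lies. The shared share of WT thus follows largely from cover. When a reciprocal overlap of 50% was required, the shares were 20.6% in WT and 49.6% in Irx5KO. The shared shares of Irx5KO and WT were 80.9 and 90.5% in the lower flank, and 75% and 78.2% in the upper one. The peaks listed in 1 genotype alone were small. The 46 of Irx5KO had a median width of 350 bp and added up to 22.5 kb, and the 11 of WT had a median of 310 bp and added up to 3.60 kb. The 3 highest-scored in Irx5KO were chr5:95806881-95807310 (score 275), chr5:95217961-95218620 (233) and chr5:95083211-95083630 (188), and in WT chr5:95919131-95919440 (172), chr5:95950761-95950990 (157) and chr5:95493741-95494350 (153). None of these 6 overlaps an annotated gene. The score is the authors' own value for each peak, and is read here only within a list.

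By base pairs, 1744 kb lay in peaks of both lists, 304.8 kb in Irx5KO peaks alone, 20.2 kb in WT peaks alone and 231.4 kb in none. The shared sequence was 98.9% of what WT peaks covered and 85.1% of what Irx5KO peaks covered. WT cover was therefore almost wholly contained in Irx5KO cover. Irx5KO peaks covered 89.1% of the stretch, so much of this containment follows from cover alone.

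Many Irx5KO peaks spanned several WT peaks and the gaps between them. How much of the sequence in Irx5KO peaks alone lay in such gaps was not computed. Of the 425 Irx5KO peaks, 195 (45.9%, against 4.98% of the whole list) each overlapped 2 or more WT peaks, 66 overlapped 5 or more, and the most overlapped by 1 peak was 27. In the other direction 82 of the 1021 WT peaks (8.03%, against 6.65%) overlapped 2 or more Irx5KO peaks, and none more than 3. Of the 1020 gaps between neighbouring WT peaks, 722 (70.8%) lay within a single Irx5KO peak. Those gaps had a median of 140 bp and reached 3.90 kb, and 29 were 1 kb or longer. Of the 424 gaps between Irx5KO peaks, 91 (21.5%) lay within a WT peak, at most 0.32 kb long. Most of the joined gaps were thus shorter than the narrowest peak in either list, 200 bp. Wide peaks at high cover span many short gaps and peaks, so these counts move with width and cover.

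When peaks less than 1 kb apart were joined in each list, an alternative chosen after seeing the data, the lists came closer in cover, at 91.9% in Irx5KO and 86.5% in WT. Peak density fell to 13.5 and 44.8 per Mb, still higher in WT. With peaks over 2000 bp left out of both lists the order of cover turned, at 7.31% in Irx5KO and 23.5% in WT. Since the lists differ in width, a limit on width takes more from Irx5KO by its construction.

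The widest peak of the stretch, chr5:93887111-93969270 in Irx5KO, was 82.2 kb wide and held Gm6346 and Pramel36. WT covered 95.6% of it in 17 peaks. The next, chr5:95546951-95617110, was 70.2 kb wide and held Gm6348 and Pramel49, a pair of like gene lengths near the other end of the stretch. WT covered 96.9% of it in 15 peaks. So near both ends of the stretch a gene pair of like lengths lay under 1 wide Irx5KO peak and a row of WT peaks. The other 3 of the 5 widest were 45.6 kb (Gm6468, Pramel46 and Pramel47), 35.1 kb (Pramel40 and Pramel39) and 33.9 kb (Gm42118), with 93.2 to 96.2% covered in WT by 10 to 16 peaks. The 5 widest WT peaks were chr5:95553001-95570130 (17.1 kb), chr5:93995261-94010390 (15.1 kb, over Gm3089), chr5:93887191-93901320 (14.1 kb), chr5:95683861-95697930 (14.1 kb, in Gm7982) and chr5:94864481-94877510 (13.0 kb, over Gm3183). Irx5KO covered 99.6 to 100% of each, the first 3 in 1 peak and the last 2 in 2 peaks.

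Most of the highest-scored peaks of both lists fell on the same genes, Gm6351 and Gm7982. In Irx5KO the first was chr5:94017551-94048350 in Gm6351, at score 1248, above 99.5% of its list. In WT it was chr5:94039781-94047480, also in Gm6351, at score 1294, likewise above 99.5% of its list. Gm6351 and Gm7982, genes of like length near opposite ends of the stretch, held 4 of the 5 highest-scored peaks in each list. The remaining 4 of Irx5KO were chr5:94048931-94058580 in Gm6351 (score 1241), chr5:95714541-95724220 and chr5:95693001-95713970 in Gm7982 (1124 and 1097) and chr5:93821561-93831880 in Pramel35 (1050). Those of WT were chr5:95705631-95713110 in Gm7982 (1291), chr5:94229141-94235900 outside any gene span (1238), chr5:94048471-94061190 in Gm6351 (1221) and chr5:95714091-95726650 in Gm7982 (1062). The typical peak of the stretch was less extreme: its median score lay at the 57.1 percentile of the Irx5KO list and the 40th of the WT list.

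Summits, the positions of highest signal within the peaks, were matched for part of the shared peaks. In the stretch 183 of the 379 shared Irx5KO peaks (48.3%) had a WT summit within 100 bp, against 67 of 87 (77.0%) in the upper flank and 113 of 186 (60.8%) in the lower. A wide peak has 1 summit over many kb, so these shares move with width.

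In 20 kb bins, 114 of the 115 bins of the stretch held a peak. Irx5KO covered 75 of them (65.8%, against 2.91% of all bins with a peak) by over 5 percentage points more than WT, and WT covered 1 (0.877%, against 5.66%) by as much more. Past 20 points there were 22 bins in Irx5KO (19.3%, against 0.0527%) and 0 in WT. Irx5KO was ahead by any amount in 106 bins and WT in 7. The rule chose the stretch by such values, so nothing is read from these shares. Median cover was 98.4% in Irx5KO and 87.5% in WT, and the median difference 8.53 points. At 90% cover or more there were 96 bins in Irx5KO and 44 in WT. The number of peaks per bin ran the other way, with medians of 3.5 and 8.5 and more peaks in WT in 100 bins.

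The bins with the largest differences sat in the 3 dips of WT cover. The bin chr5:94740001-94760000 was covered over 90% in Irx5KO and 22.5% in WT. In chr5:95380001-95400000 the values were 96.1 and 40.3%, and in chr5:95060001-95080000 they were 99.6 and 49.4%. The next were chr5:95400001-95420000, at 91.8 and 43.3%, and chr5:95080001-95100000, at 89.6 and 41.5%. In each of them Irx5KO cover was 89.6% or more and WT cover below 50%. The bin most covered in WT relative to Irx5KO, chr5:95840001-95860000, had 40.8 and 46.2% and lies in the thin upper end, as do chr5:95900001-95920000, at 1.95 and 4.50%, and chr5:95960001-95980000, at 17.7 and 18.3%. The other two, chr5:94040001-94060000, at 98.5 and 99.2%, and chr5:95700001-95720000, at 98.8 and 99.1%, were nearly full in both lists. Unbroken runs of at least 10 bins past 5 points numbered 4 for Irx5KO in the whole genome, 2 of them in the stretch: chr5:94600001-94920000, with median cover of 99.4 and 81.2%, and chr5:94960001-95180000, with 99.2 and 70.2%. For WT there were 12 such runs, 0 of them in the stretch. One bin was empty in both lists, within a gap of 50.1 kb at chr5:94088291-94138350.

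Other densely covered bins of the genome had small differences and more often WT ahead. Among bins whose mean over both lists was 80% or more, Irx5KO was ahead in 89 of 91 in the stretch (97.8%) and in 713 of 3939 elsewhere (18.1%). Elsewhere WT was ahead in 2182 (55.4%) and 1044 were equal (26.5%), and the median difference was -0.25 points, against 8.8 in the stretch. It was ahead by over 5 points in 65 (71.4%) and in 64 (1.62%). WT was ahead by over 5 points in 0 of the 91 and in 446 (11.3%) elsewhere. WT had more peaks than Irx5KO in 95.6% of the dense bins of the stretch and in 16.2% of those elsewhere. The 13 dense bins of the flanks, counted here among those elsewhere, had the order of the stretch: Irx5KO was ahead in 12, by over 5 points in 8, and WT had more peaks in 12. These values describe the stretch that the rule picked, beside other dense bins.

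**Figure D3:**
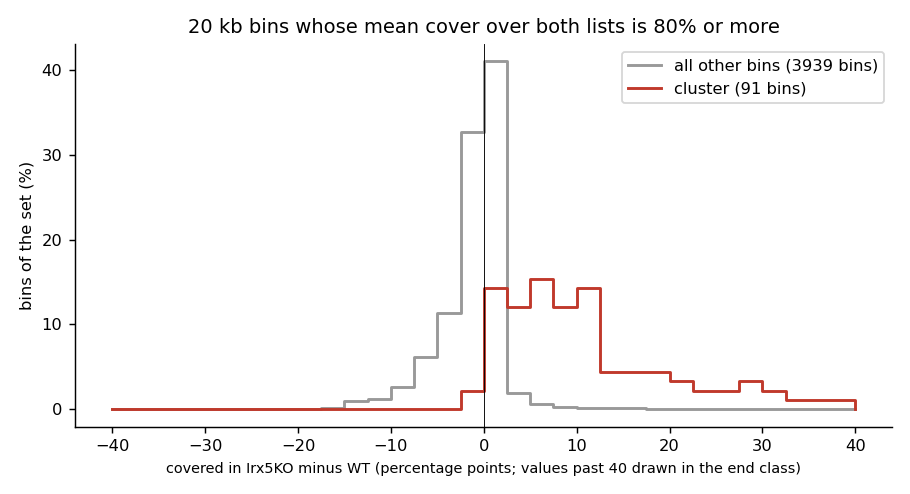
Share of bins (percent) by Irx5KO minus WT cover (percentage points, classes of 2.5), for 20 kb bins with mean cover of 80% or more in the cluster (red, 91 bins) and elsewhere (grey, 3939 bins). Bins with equal cover fall in the class from 0 to 2.5. The red line lies almost wholly to the right of 0, where 89 of its 91 bins are, and the grey line peaks at 0 with more weight to the left.

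The annotation placed 44 genes in the stretch, of which 29 code for protein. Of the coding genes, 14 (48.3%, against 11.5% of all 21887 coding genes) were covered by over 5 percentage points more in Irx5KO, and 0 (against 7.14%) in WT. Median cover of their spans was 99.8% in Irx5KO and 94.1% in WT, while over all coding genes it was 7.92 and 7.09%. The stretch was chosen by its cover, and a margin of 5 points is not alike at such unlike cover. Nothing is therefore read from these shares. Of the 16 genes with a Pramel name, 8 were past the 5 points in Irx5KO and 0 in WT, with medians of 99.2 and 94.2%. The 13 coding genes without that name were much the same, with 6 past it and medians of 100% and 93.7%, as were the 15 others, mostly pseudogenes, with 8 past it and medians of 100% and 91.5%. Genes with and without a Pramel name thus had like values. The name does not part the family from unrelated genes. Gm46934, Gm46935, Gm6346 and Gm6348, which lack it, had promoters nearly the same as those of named genes. The promoter of E330014E10Rik, which also lacks it, matched those of Pramel35, Pramel38 and Pramel48 only over aligned stretches of 123 to 180 bases. Several spans lie inside others, such as Pramel36 in Gm6346 and Pramel39 in Pramel40, and share their values in part.

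A peak within 1000 bp of a gene end was present in both lists for 28 of the 29 coding genes (96.6%, against 75.2% of all), including all 16 with a Pramel name. None had one in Irx5KO alone (against 6.07%) or WT alone (against 3.99%), and Cxcl13 had none in either. Peaks covered 89.1% of the stretch in Irx5KO and 76.7% in WT, so a window meets a peak almost wherever it lies. These counts therefore cannot show whether gene ends were alike in the lists. With only the upper 50% of each list by score kept, such a peak was in Irx5KO alone for 4 of the 29 and in WT alone for 0. With peaks of at most 2000 bp, it was in Irx5KO alone for 1 and in WT alone for 5.

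**Figure D4:**
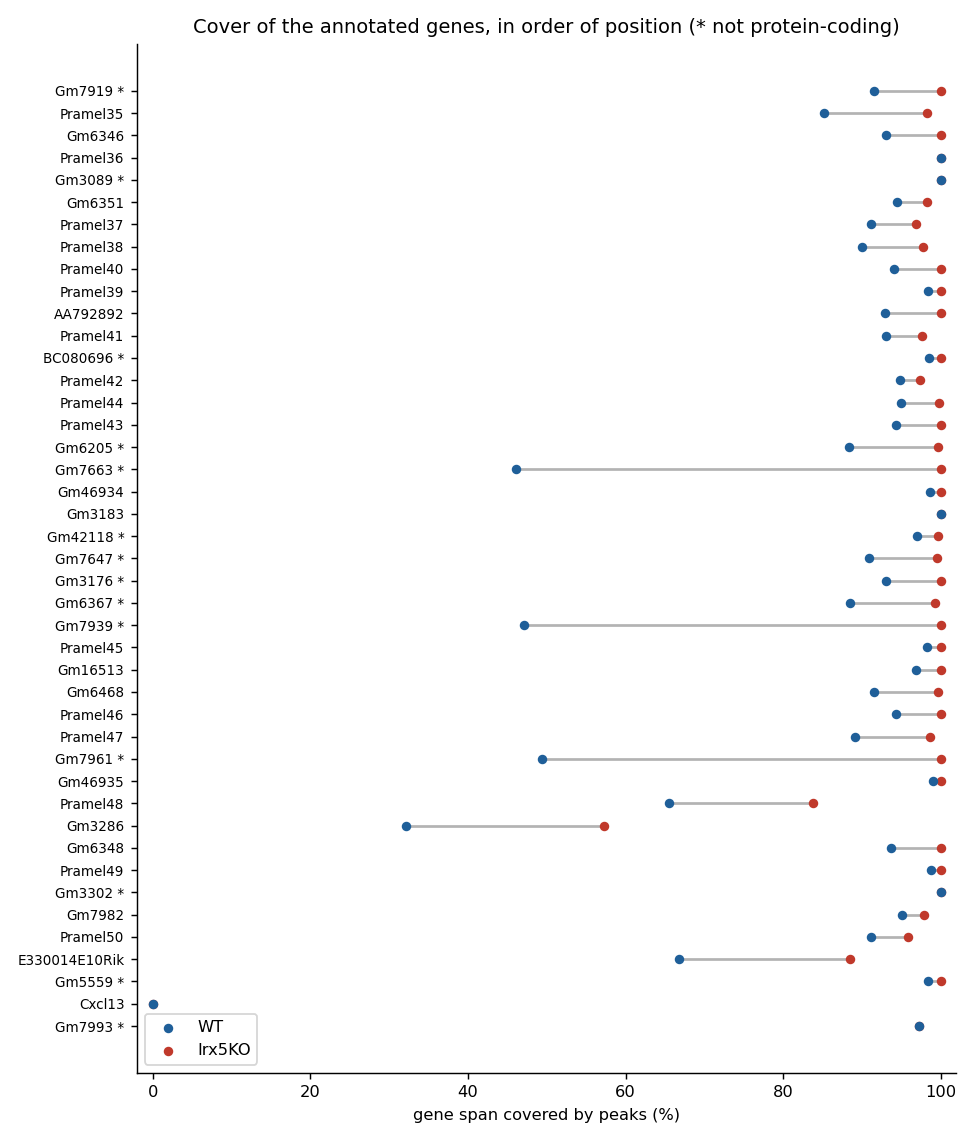
Share of each gene's span covered by peaks (percent) in WT (blue) and Irx5KO (red), for the genes of the cluster in order of position, with 1 row per gene and an asterisk for genes that are not protein-coding (1 small nuclear RNA gene is left out). Where both values are equal the blue point hides the red one. Most rows differ by a few points, and Gm7663, Gm7939 and Gm7961 stand out with WT cover of 46.0 to 49.3%.

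The largest differences between the lists were at 3 short pseudogenes of the same length, 2724 bp. Gm7663 (chr5:94769344-94772067) was covered over 100% in Irx5KO and 46.0% in WT, Gm7939 (chr5:95099587-95102310) over 100% and 47.1%, and Gm7961 (chr5:95417056-95419779) over 100% and 49.3%. Each lay under 1 Irx5KO peak and met 4 WT peaks. The 3 pseudogenes had nearly the same value in each list. The next were Gm3286 (chr5:95510742-95522402), at 57.3 and 32.2%, and E330014E10Rik (chr5:95775870-95804230), at 88.4 and 66.8%. Of the 16 genes with a Pramel name, Pramel48 (chr5:95456806-95485589) had the largest difference, at 83.7 and 65.5%, with 23 peaks in each list. It was also the least covered of those 16 in both lists.

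No gene was covered more in WT. The smallest differences were at 0, for Pramel36 (chr5:93925013-93929039), Gm3183 (chr5:94873783-94877202), Gm3089 (chr5:93996448-93999177) and Gm3302 (chr5:95662272-95665001), all covered over 100% in both, and for Gm25937 and Cxcl13 (chr5:95956939-95961068), both at 0%. Of the genes at the borders, Gm7919 (chr5:93738066-93740786) had 100% and 91.5%, and Gm7993 (chr5:95974042-95975823) had 97.2% in both lists. Beyond the upper border, Cnot6l, a subunit of the deadenylase complex that shortens mRNA tails, had 10.6 and 9.82%, and Gm52799, which lies inside its span, 58.4 and 33.5%. Mrpl1, a mitochondrial ribosomal protein, had 4.29 and 5.16%. Below the dense block, Ccng2, which encodes cyclin G2, had 15.5 and 14.1%.

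Genes of like annotated length were set side by side. Within a class each gene was at most 0.5% longer than the next shorter one, so a whole class can span more. Members are called copies here and below by length alone, because no sequence beyond the promoters was at hand. Pramel36, Pramel43, Gm3176, Pramel46 and Pramel49, of 4027 to 4036 bp, were all covered over 100% in Irx5KO and over 93.1 to 100% in WT. Gm6346, Pramel40, Gm7647 and Gm6348, of 19172 to 19210 bp, were at 99.6 to 100% and 90.9 to 94.1%. Pramel35, Gm6351, Pramel38 and Gm7982, of 60257 to 60692 bp, were at 97.8 to 98.3% and 85.2 to 95.2%. Irx5KO cover was near its upper limit in all these classes, so spreads are not compared between the lists. Pramel37 and Pramel50, with identical promoters and 4092 and 4082 bp, had 96.8 and 95.84% in Irx5KO and 91.2% each in WT. The 3 genes of 2703 bp, Gm46934, Pramel45 and Gm46935, were at 100% in Irx5KO and 98.2 to 99% in WT. The widest spread was among the 6 pseudogenes of up to 2730 bp: all had 100% in Irx5KO, while in WT Gm3089 and Gm3302 had 100%, Gm7919 had 91.5%, and the remaining 3 had 46.0 to 49.3%.

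The 3 low copies had like cover close by, and less so at equal distances farther off. They lie 330.2 kb and 317.5 kb apart, and each stands less than 10 kb below one of the 2703 bp genes, Gm7663 below Gm46934, Gm7939 below Pramel45 and Gm7961 below Gm46935. In the 20 kb just below them WT cover was 38.4 to 40.3% and Irx5KO cover 89.1 to 89.5%. From 20 to 40 kb below, WT had 48.7 to 51.7% and Irx5KO 98.4 to 99.7%, and in the 20 kb above their lower end 65.6 to 67.3% and 96.9 to 97.5%. These are the 3 dips of the WT profile. Farther below, Gm7663 parted from the other two. From 40 to 60 kb below, WT cover was 83.2% at Gm7663, 52.5% at Gm7939 and 49.98% at Gm7961, and from 60 to 80 kb below it was 40.7, 72.3 and 73.0%. At the other 3 pseudogenes the 20 kb below had 82.0 to 89.2% in WT and 87.9 to 99.6% in Irx5KO, so WT cover there was not low.

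At finer scale some pairs were alike and others not. Over 60 windows of 2 kb, from 100 kb below to 20 kb above the lower end of each copy, WT cover around Gm7939 and Gm7961 lay within 10 percentage points in 53 windows (Pearson's r = 0.98 across windows of the same 2 lists), and Irx5KO cover in 60 (r = 0.97). Gm3089 and Gm3302, which lie 1666 kb apart, matched in 57 windows in WT (r = 0.96) and in 60 in Irx5KO (r = 0.98). Gm7663 matched Gm7939 in 39 windows in WT (r = 0.56) and in 59 in Irx5KO (r = 0.87), and it matched Gm7961 in 39 (r = 0.56) and 59 (r = 0.87). That WT count was close to those of Gm7919 with Gm3089, at 37 windows (r = 0.03), and of Gm7919 with Gm3302, at 36 (r = 0.02), so 39 windows alone do not mark a pair as alike. The other pairs, each of 1 low copy and 1 of the other 3, matched in 17 to 22 windows in WT and 41 to 55 in Irx5KO. Windows were paired at equal distances, so a like pattern that is displaced, as below Gm7663, lowers the count and r. High cover throughout brings windows within 10 points in Irx5KO whatever the copies. Neighbouring windows share peaks, so these correlations are descriptions.

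**Figure D5:**
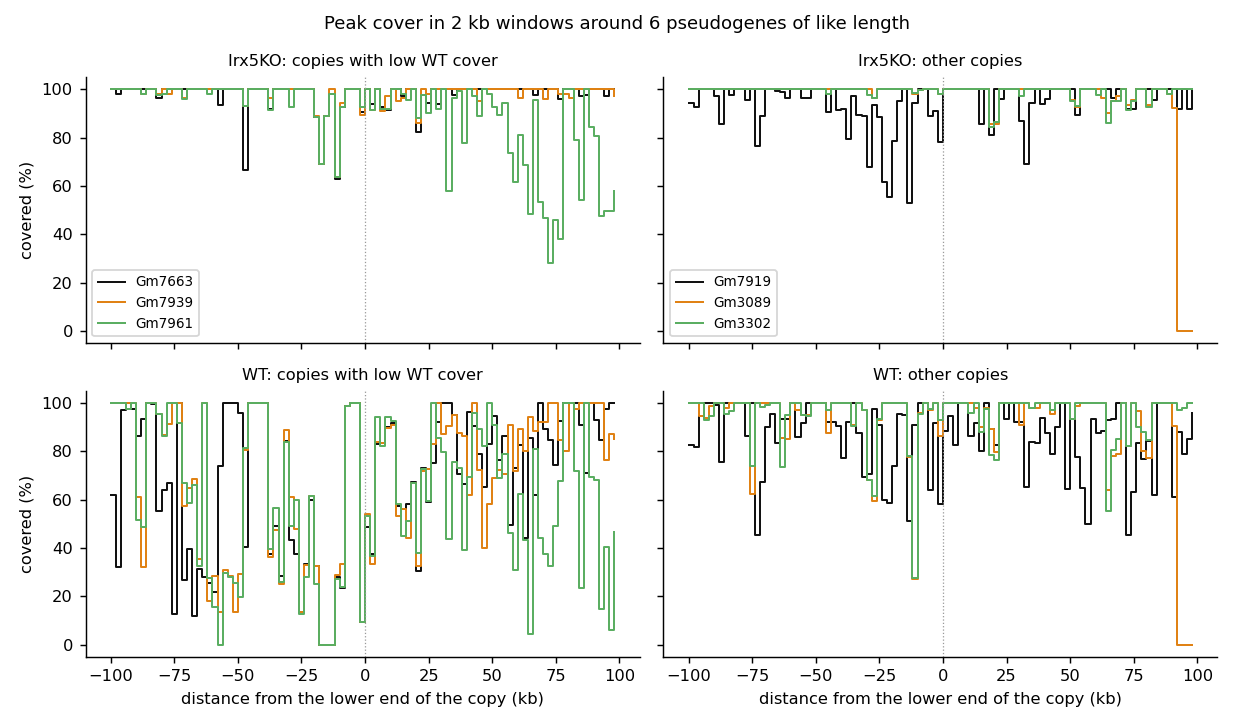
Share of each 2 kb window covered by peaks (percent) against the distance in kb from the lower end of 6 pseudogenes of like length, in Irx5KO (top) and WT (bottom). The left panels show Gm7663, Gm7939 and Gm7961, whose WT lines run together from -40 to 0 kb. Farther below, Gm7663 parts from the others. The right panels show Gm7919, Gm3089 and Gm3302, where Gm3089 and Gm3302 nearly coincide over the windows from -100 to 20 kb.

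Family members elsewhere in the genome did not show the same order of the lists. On chromosome 4 the run of 24 genes from Pramel1 to Pramel13 (chr4:143394441-144408467) held 592 peaks in Irx5KO and 564 in WT, of median width 480 and 530 bp, which covered 57.8 and 62.6%. The smaller run from Pramel17 to Pramel19 (chr4:101834969-101943183) held 54 and 51 peaks with 45.0 and 50.2% covered. In both runs cover was higher in WT. Over the 33 coding genes of the family on other chromosomes, 5 were covered by over 5 points more in Irx5KO (15.2%, against 11.5% of all coding genes) and 13 in WT (39.4%, against 7.14%). Shared peaks made up 87.7% of the Irx5KO and 80.1% of the WT peaks of the larger run, against 78.2 and 73.4% of the whole lists. The order of the shared shares in that run was thus that of the whole lists. Whether these runs differ from the cluster on chromosome 5 could not be tested with 1 list per genotype.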

How the data were processed

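ATAC-seq peak lists of sorted mouse hair follicle stem cells were used, 1 for Irx5KO and 1 for WT, each pooling 2 samples, per the labels. The submitters' processing notes name FastQC, cutadapt 2.9, Bowtie2, Genrich 0.6, deepTools 3.4.2, ChIPseeker 1.24.0 and mm10. Their roles and settings, the treatment of reads with several matches and any Tn5 shift were not given in the sources used here. The deposited files hold peak start, end, summit offset and a score, all as the authors made them. Peaks were at least 200 bp wide with scores of 50 or more, and the read depth behind them is unknown; the labels state reads sequenced per sample, not reads mapped.

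Positions were made 1-based. Cover was the union of a list's peaks, per 20 kb bin, gene span or promoter, and differences count past 5 percentage points. Shared means 1 bp of overlap. Gene spans and promoters came from RefSeq for GRCm38.p6, the assembly of mm10. Promoter pairs were aligned with free end gaps (Biopython 1.88) and grouped at 90% identity over at least 100 bases. Interval code was tested on simulated peaks against bedtools 2.31.1. Genes described in full are the 6 with the largest difference each way, the 4 with the highest and lowest cover and those at the borders; peaks, the 5 widest, the 5 highest-scored and the 3 highest-scored in 1 list only; bins, the 5 largest differences each way. By that rule the promoter to show was that of Pramel48; the others, and the 3 dips, were chosen after their values were seen. The members and lists were chosen with earlier results of these data known. No test between genotypes was made.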

Additional observations from a re-analysis of the deposited data

Results flagged for a closer look

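Unplaced contigs assigned to chromosome 5 carry peaks that enter none of the comparisons, and on all 5 of them the covered length was larger in Irx5KO than in WT, with fewer peaks. On JH584299 the excess was 171.6 kb, with 926.5 kb under 168 peaks in Irx5KO and 754.8 kb under 490 peaks in WT. On JH584298 it was 23.15 kb (24 and 105 peaks), on JH584296 18.37 kb (27 and 84 peaks), on GL456354 17.97 kb (44 and 77 peaks) and on JH584297 17.15 kb (30 and 79 peaks). Median widths on JH584299 were 3125 bp for Irx5KO and 645 bp for WT. The order of the lists was that of the Pramel cluster for number, width and cover. Whether these contigs hold copies of the cluster was not tested, and the difference between the genotypes was not tested.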

How the results depend on the processing

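No paired analysis was possible because each list pools both samples of its genotype, and for the same reason no sample could be left out. Values are given for Irx5KO and then WT. With the upper 50% of each list by score, WT cover in the cluster was 54.9% and density 107 and 155 peaks per Mb. For the shared share, these peaks were set against the full other list. It was 99.2 and 100% in the cluster, and 97.1 and 98.3% in the flanks. Flank density was 86.5 and 88 per Mb. Under this setting 22 coding genes were covered more in Irx5KO and 4 had a gene-end peak in Irx5KO alone. With peaks of at most 2000 bp, cover was 7.31 and 23.5%, density 96.5 and 339 per Mb, the shared share 77.5 and 23.3%, flank cover 8.06 and 10.1%, flank density 144 and 182 per Mb and the flank shared share 73 and 61.8%; 5 and 83 bins and 3 and 14 coding genes were covered more in one list, and 1 and 5 had a gene-end peak in one list alone. Borders were also set at the outermost Pramel genes within the stretch (chr5:93794624-95736173), which leaves out Pramel33 and Pramel34 of the lower flank. With these borders Irx5KO cover was 94.8%, Irx5KO density 160 per Mb and the WT shared share 99.7%, with 0 bins ahead in WT. Requiring 50% of a peak's own width gave a shared share of 79.8% in Irx5KO, and 73.4 and 82.9% in the flanks; requiring a reciprocal 50% gave 49.6 and 20.6%, and 62.7 and 52.3% in the flanks. Flanks of 500 kb had cover of 42.2 and 38.9%, density of 209 and 281 per Mb and shared shares of 85.2 and 93.2%; flanks of 2 Mb had a WT density of 176 per Mb and a WT shared share of 81.3%. Bins ahead numbered 127 and 3 at 10 kb, and 33 and 0 at 50 kb; at a margin of 10 points 0 bins were ahead in WT and 4 coding genes in Irx5KO. Chosen after seeing the data, joining peaks less than 1 kb apart gave WT cover of 86.5% and densities of 13.5 and 44.8 per Mb, the lower flank without its dense part gave flank cover of 10.5 and 10% and density of 130 per Mb in both, and leaving out the thin upper end left 0 bins ahead in WT. The order of the lists was that of the main values under 4 of 5 settings for cover, 5 of 5 for density, 6 of 7 for bins and 2 of 3 for coding genes, in each case with the limit on width as the only exception, and under 3 of 5 for the shared share, where the width limit and the reciprocal overlap turned it. The cause was not tested. Read depth is unknown, so what it limits cannot be given.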
